A study of Mus musculus with 8 samples.

Results

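Immunoglobulin kappa variable (V) segments were read by 92 array probes in CD4+ T cell samples of mice with or without a tumour. The 92 were the non-control probes whose description in the scanner files names an immunoglobulin kappa variable gene and no pseudogene, and whose spots the scanner software rated well above background on each of the 2 arrays of some group. Such a description was held by 101 of 56587 usable probes, and 32039 probes of all kinds met the background rule. The choice used no difference between groups, but all 92 met the rule in tumour-bearing mice with control antibody, the group in which most of them were highest. They also met it in 89 cases in tumour-bearing mice with anti-IL-6R, 75 in tumour-free mice with anti-IL-6R and 79 in tumour-free mice with control antibody. In 12 cases the rule was met in tumour-bearing groups alone, and 74 of the 92 lay well above background on all 8 arrays. Of the other 9 described probes, 5 were well above background on no array. Counts are therefore also given for the 74 and for all 101.

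The study hybridised CD4+ T cell RNA to 8 arrays, read in a single colour, in 4 groups of 2. All hosts were C57BL/6 mice that received CD4+ T cells with a transgenic T cell receptor specific for ovalbumin (OVA) and then dendritic cells loaded with OVA peptide, and CD4+ T cells were isolated 4 days after that immunisation. Tumour-bearing hosts had been inoculated with MCA205, a mouse fibrosarcoma line, made to express OVA. Anti-IL-6R Ab, an antibody against the interleukin-6 receptor, was given to tumour-bearing hosts (replicates 7 and 8) and to hosts without a tumour (replicates 5 and 6). Control Ab was given to tumour-bearing hosts (replicates 3 and 4) and to hosts without a tumour, here called tumour-free (replicates 1 and 2). The sources used here give neither the age and sex of the mice nor the antibody clones, their dose, how many mice made a sample or how pure the isolates were. The labels do not say that the 2 arrays of a group came from separate mice, so p-values measure only the spread between these samples, which may be technical. All arrays lay on 1 slide, with the control antibody in 1 slide column and anti-IL-6R in the other, and the hosts in separate rows, so slide position and group cannot be told apart.

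A kappa light chain gene is assembled in developing B cells, where 1 of many V segments of the kappa locus is joined to a J segment in front of the single constant segment, Igkc. The V segment then encodes most of the antigen-binding part of the light chain, and plasma cells, the antibody-secreting end stage of B cells, make by far the most of its RNA. Conventional CD4+ T cells assemble T cell receptor genes and not the kappa locus. The T cell label was checked against 12 T cell markers, of which 11 were measured and well above background on all 8 arrays, Cd4 and Cd3e included, while Trac had no kept probe. Their summed signal, in multiples of each array's 75th percentile, was 861 to 962 in tumour-bearing and 985 to 1047 in tumour-free mice with anti-IL-6R, and 1104 to 1115 in tumour-bearing and 925 to 1037 in tumour-free mice with control antibody. All 20 B cell identity genes listed, such as Ms4a1 and Cd79b, were also well above background on all 8 arrays.

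The 92 probes read 85 segments, all on chromosome 6 between positions 67505984 and 70653980 of build mm9, the build named in the file headers, with 32 probes on the plus strand and 60 on the minus strand. The number before the hyphen in a segment's name is its V family, a group of segments with similar sequence. By segment name, 89 of the 92 probes were listed in the RefSeq table (assembly GRCm38.p6) as V segments. The other 3, those of Igkv12-47, Igkv14-126 and Igkv1-115, were listed as V segment pseudogenes. The Igkv12-47 probe starts at 68880443, between those of Igkv4-86 (68860655) and Igkv13-84 (68889855) and not beside that of Igkv12-46 (69714643). Its name, and with it its family and pseudogene listing, is therefore uncertain. Of the 92 probes, 86 lay within 1 exon and 6 spanned more genome than their own 60 bases, across the junction between the leader and V exons.

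The 6 probes named as family 12 are shown first because this family had the highest median difference between mice with and without a tumour. Sequences are those in the scanner files, 5′ to 3′, with mm9 positions. Capitals mark the longest run identical with the probe of Igkv12-41 (for Igkv12-41 itself, with that of Igkv12-44), where that run was at least 12 bases.
Igkv12-41 (chr6:69808423-69808480, minus strand): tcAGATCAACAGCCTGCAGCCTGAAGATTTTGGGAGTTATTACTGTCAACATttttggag
Igkv12-44 (chr6:69764635-69764694, minus strand): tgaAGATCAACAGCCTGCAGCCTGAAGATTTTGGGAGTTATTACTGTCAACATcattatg
Igkv12-38 (chr6:69893196-69893255, minus strand): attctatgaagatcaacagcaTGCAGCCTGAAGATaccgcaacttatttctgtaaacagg
Igkv12-46 (chr6:69714643-69714702, minus strand): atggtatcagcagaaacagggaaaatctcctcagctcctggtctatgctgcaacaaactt
Igkv12-47 (chr6:68880443-68880502, minus strand): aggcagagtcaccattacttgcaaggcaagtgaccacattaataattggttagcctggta
Igkv12-89 (chr6:68784840-68784899, minus strand): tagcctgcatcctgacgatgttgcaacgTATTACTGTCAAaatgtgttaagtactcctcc

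The probes of Igkv12-41 and Igkv12-44 share an unbroken run of 50 bases, so they are not independent readings. Those of Igkv12-46 and Igkv12-47 lie in other parts of the segment and share no run of 12 bases with that of Igkv12-41. Levels below are compared between arrays for the same probe only.

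Family 4 is shown because it held 15 of the 17 probes that differed between antibodies in tumour-bearing mice. Capitals mark the longest run identical with the probe of Igkv4-62 (for Igkv4-62, with that of Igkv4-57-1), again from 12 bases.
Igkv4-62 (chr6:69349806-69349865, minus strand): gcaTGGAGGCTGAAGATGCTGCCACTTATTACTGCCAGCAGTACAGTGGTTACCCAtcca
Igkv4-57-1 (chr6:69494355-69494414, minus strand): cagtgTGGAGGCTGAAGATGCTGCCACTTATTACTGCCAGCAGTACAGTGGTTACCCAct
Igkv4-68 (chr6:69254828-69254887, minus strand): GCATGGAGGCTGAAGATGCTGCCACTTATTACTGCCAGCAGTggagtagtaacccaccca
Igkv4-60 (chr6:69413210-69413269, minus strand): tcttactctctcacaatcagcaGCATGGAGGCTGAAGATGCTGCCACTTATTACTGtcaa
Igkv4-71 (chr6:69193231-69193290, minus strand): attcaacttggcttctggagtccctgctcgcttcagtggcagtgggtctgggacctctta
Igkv4-55 (chr6:69557315-69557374, minus strand): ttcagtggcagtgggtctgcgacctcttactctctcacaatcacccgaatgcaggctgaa
Igkv4-54 (chr6:69581780-69581839, minus strand): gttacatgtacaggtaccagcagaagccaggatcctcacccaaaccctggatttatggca

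The first 4 of these probes share runs of 34 to 53 bases, whereas those of Igkv4-71, Igkv4-55 and Igkv4-54 share no run of 12 bases with Igkv4-62. They are not all separate readings, because the Igkv4-55 probe shares runs of more than 12 bases with those of Igkv4-71 and Igkv4-60. Over all 4186 pairs of the 92 probes, 19 pairs matched at 50 or more of their 60 bases, 17 of them within a family, and they took in 26 probes. The codons for the tyrosine-tyrosine-cysteine motif that ends the third framework region of a V segment were searched as TATTACTGT and TATTACTGC on both strands, with no overlap between the motifs. They were found in 23 of the 92 probes (25%) as printed and in none on the other strand, against 58 of the 32039 kept probes (0.181%) as printed and 21 (0.0655%) on the other strand. The match describes the letters of the probes only.

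Segments read by more than 1 probe are shown where their readings of the difference with the tumour under control antibody fell on different sides of the threshold, and a pair of leader-spanning probes of family 8 because they showed small differences. The Igkv3-4 and Igkv6-25 probes share no run of 12 bases within a segment, and capitals in the family 8 probes mark the run they share.
Igkv3-4 from transcript base 202 (chr6:70622214-70622273, plus strand): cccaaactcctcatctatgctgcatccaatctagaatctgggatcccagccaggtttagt
Igkv3-4 from transcript base 300 (chr6:70622312-70622371, plus strand): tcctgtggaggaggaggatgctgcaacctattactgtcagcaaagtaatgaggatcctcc
Igkv6-25 from transcript base 198 (chr6:70165770-70165829, plus strand): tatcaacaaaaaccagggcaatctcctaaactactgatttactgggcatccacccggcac
Igkv6-25 from transcript base 14 (chr6:70165408-70165467, plus strand): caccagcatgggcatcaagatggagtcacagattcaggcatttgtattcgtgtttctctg
Igkv8-19 (chr6:70291171-70291438, minus strand): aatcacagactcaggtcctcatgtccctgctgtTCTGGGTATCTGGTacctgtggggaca
Igkv8-24 (chr6:70167148-70167406, minus strand): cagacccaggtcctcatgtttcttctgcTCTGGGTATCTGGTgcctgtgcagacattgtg

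Array by array, kappa V signal was highest in tumour-bearing mice with control antibody. Relative to each probe's own mean over 8 arrays, the median of the 92 probes was 0.20 and 0.31 log2 units in the arrays of tumour-bearing mice with anti-IL-6R and -0.95 and -0.41 in those of tumour-free mice with anti-IL-6R. It was 0.78 and 0.78 in tumour-bearing mice with control antibody and -0.62 and -0.36 in tumour-free mice with control antibody. The 4 arrays of tumour-bearing mice thus all lay above the 4 of tumour-free mice in this median. The same median over all 32039 probes lay between -0.04 and 0.03 on every array. Replicate 5 stood apart from its partner: it was lower than replicate 6 for 83 of 92 probes, by a median of 0.53, while the median absolute difference between these 2 arrays over all probes was 0.117. Medians that rest on it are given with and without it. In these bulk samples fewer B-lineage cells and less kappa RNA per cell cannot be told apart.

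The first comparison asked how CD4+ T cell samples of tumour-bearing mice differ from those of tumour-free mice under control antibody. Kappa V segments were higher in tumour-bearing mice across the locus: 65 of 92 probes rose and 0 fell, where 3.36% of all kept probes were called higher and 1.89% lower. The median difference was 1.17 log2 units, where 1 unit is a 2-fold difference, against 0.01 for all kept probes, and 91 of 92 probes lay above 0 (range -0.08 to 4.20, the highest being the fitted value of Igkv12-38, dim in tumour-free mice). With the 8 probes that were dim in tumour-free mice set at the bounds defined below, the median was 1.12. Arrays of the 2 groups did not overlap for 88 of 92 probes, all higher in tumour-bearing mice, against 27.8% of all kept probes higher without overlap and 24.7% lower. Of the 79 probes well above background on both arrays of both groups, 60 rose, with a median of 1.13. Of the 74 probes well above background on all 8 arrays, 58 rose, with a median of 1.13. When all 56587 usable probes entered the fit, 39 of the 101 described probes rose and 0 fell, where 0.875% of all usable probes were called higher and 0.316% lower.

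Calls came from limma's moderated test on 8 arrays, with p-values adjusted over all 32039 probes by the Benjamini-Hochberg method and a threshold of 0.05. With 2 arrays a group, calls depended on single arrays. Without replicate 1, 2, 3 or 4, fewer of the 92 probes were called higher, and so were fewer of all kept probes. The median of the 92 stayed between 1.08 and 1.33 whichever array was left out.

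By segment name, family 12 had the highest median difference of the V families, at 2.34, with 5 of 6 probes called. These include the Igkv12-47 probe, whose name and family are uncertain. It measured -0.79 and -1.40 log2 units relative to the array's 75th percentile in tumour-bearing mice, against -4.18 and -3.72 in tumour-free mice. Its arrays did not overlap, although only 1 of the 2 tumour-free arrays was well above background. The difference was 2.85 ± 0.29 (SE, n = 2 arrays a group; limma adjusted p = 0.00284). This probe was kept only through the tumour-bearing groups, the high ones, so its call is not support for a difference. Igkv12-41 measured 1.60 and 1.54 in tumour-bearing mice, against -0.73 and -0.84 in tumour-free mice. Both high arrays were those of tumour-bearing mice, a difference of 2.35 ± 0.22 (limma adjusted p = 0.00184). Igkv12-44, whose probe shares most of its bases with that of Igkv12-41, gave 1.59 and 1.57 in tumour-bearing mice, against -0.71 and -0.77 in tumour-free mice (difference 2.32 ± 0.20, limma adjusted p = 0.00162). Igkv12-46, read in another part of the segment, gave 1.88 and 1.70 in tumour-bearing mice, against -0.38 and -0.28 in tumour-free mice. That difference was 2.12 ± 0.20 (limma adjusted p = 0.00184). Its probe shares no run of 12 bases with that of Igkv12-41, but both could bind RNA of the same segments, which was not tested. These 4 calls held whichever array was left out.

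Igkv12-38 was well above background on neither array of tumour-free mice, so its difference has a lower bound only: at least 6.75-fold higher in tumour-bearing mice (limma adjusted p = 0.00544). For a bound, each dim array takes the higher of the probe's own value and the lowest signal called well above background on that array. By the same measure Igkv3-9 was at least 3.33-fold higher (limma adjusted p = 0.0125), and its call was lost without replicate 2 or 4 (adjusted p up to 0.0643). Igkv7-33 measured -3.79 and -3.40 in tumour-bearing mice, against -5.56 and -6.11 in tumour-free mice. It was kept only through the tumour-bearing control arrays, the high ones, so its call among the 65 is not support for a difference. Igkv12-38 and Igkv3-9 were kept only through the tumour-bearing groups, so their calls are not support either. The sixth family 12 probe, Igkv12-89, was not called: it measured -3.00 and -3.16 in tumour-bearing mice, against -4.57 and -3.31 in tumour-free mice, a difference of 0.86 ± 0.49 (limma adjusted p = 0.336). Its groups did not overlap, but the tumour-free arrays differed from each other more than the group means did.

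Family 4, the largest with 24 probes of 23 segments, rose in 23 of 24 probes, with a median of 1.099 and a range of 0.26 to 1.81. Its differences had an SD over probes of 0.27, against 0.65 over the 68 probes of other families. Igkv4-71 measured 2.98 and 3.01 in tumour-bearing mice, against 1.87 and 1.94 in tumour-free mice. The spread within each group was small beside the difference of 1.09 ± 0.14 (limma adjusted p = 0.00637), and the call held whichever array was left out. The exception was Igkv4-54, with -0.36 and -0.54 in tumour-bearing mice, against -0.89 and -0.52 in tumour-free mice. Its groups overlapped, and the difference of 0.26 ± 0.24 was not called (limma adjusted p = 0.582). The standard errors were also smaller in family 4, with a median of 0.15 against 0.27 in the other families.

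In family 3, 8 of 9 probes rose, with a median of 1.55. Its example Igkv3-7 measured 0.21 and 0.41 in tumour-bearing mice, against -1.31 and -1.07 in tumour-free mice (difference 1.50 ± 0.18, limma adjusted p = 0.00506). In family 1, 6 of 10 rose with a median of 1.16, and Igkv1-133 measured 1.15 and 0.95 in tumour-bearing mice, against -0.28 and -0.02 in tumour-free mice (difference 1.20 ± 0.20, limma adjusted p = 0.0167). The groups did not overlap in either example, but the second call was lost without replicate 1, 2 or 3 (adjusted p up to 0.0899). Fewer probes were called in family 6, 4 of 11 (median 0.97), and in family 8, 3 of 8 (median 1.11), although all 11 and all 8 lay above 0.

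Igkv8-21 of family 8 measured -0.12 and 0.15 in tumour-bearing mice, against -2.16 and -2.68 in tumour-free mice. The groups did not overlap, and the difference was 2.44 ± 0.53 (limma adjusted p = 0.0406), but the call was lost without replicate 1, 2, 3 or 4 (adjusted p up to 0.222). Some examples match across families: the probes of Igkv6-17 and Igkv8-28 share a run of 40 bases, and those of Igkv1-133 and Igkv2-109 match at 51 bases. Such pairs are not independent readings. Igkv8-28 gave 1.05 ± 0.23 (limma adjusted p = 0.0419) and Igkv6-17 gave 0.97 ± 0.20 (limma adjusted p = 0.037), and both lost the call when any 1 of at least 5 arrays was left out. The same held for Igkv14-111 (1.27 ± 0.28, limma adjusted p = 0.0403), while Igkv9-124 (1.73 ± 0.35, limma adjusted p = 0.0322) and Igkv2-109 (1.02 ± 0.20, limma adjusted p = 0.0288) lost it without replicate 1, 2, 3 or 4. Over these 5 probes the adjusted p reached at most 0.166 with an array left out. In family 5, 1 of 4 probes was called, with a median of 0.73. Its probe of Igkv5-39 was the only one below 0: it measured -0.41 and -1.33 in tumour-bearing mice, against 0.18 and -1.76 in tumour-free mice. Its arrays overlapped fully, and the difference of -0.08 ± 0.56 was not called (limma adjusted p = 0.956). Without replicate 1 it was 0.90, and without replicate 4 it was 0.39.

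Where a segment had several probes, the readings of Igkv3-4 and Igkv6-25 fell on different sides of the threshold. One Igkv3-4 probe, starting at base 202 of its transcript, measured 0.06 and 0.31 in tumour-bearing mice, against -1.77 and -1.36 in tumour-free mice, and was called (1.75 ± 0.24, limma adjusted p = 0.00839). The other, starting at base 300, measured -0.42 and 0.16 in tumour-bearing mice, against -0.39 and -1.16 in tumour-free mice, and was not (0.65 ± 0.35, limma adjusted p = 0.305). The tumour-free arrays separated the readings, with replicate 1 high in the second probe alone. For Igkv6-25 the probe starting at base 198 gave 1.13 ± 0.14 (limma adjusted p = 0.00637) and that starting at base 14, in the leader, gave 0.95 ± 0.35 (limma adjusted p = 0.152), so the sizes were close and the errors were not. The 6 leader-spanning probes had a median of 0.69, with 3 called, and the 86 others a median of 1.19, with 62 called. Among the leader-spanning ones Igkv8-19 gave 0.42 ± 0.10 (limma adjusted p = 0.0582) and Igkv8-24 gave 0.16 ± 0.20 (limma adjusted p = 0.686).

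The size of the difference was set beside position and base composition. Over the 92 probes, Pearson's r of the difference was 0.02 with the mm9 position, 0.17 with the probe's start in its transcript, -0.23 with its mean level and -0.30 with its number of G and C bases. These are descriptions across probes that share arrays and sequence. Between 2 probes, the median absolute difference of this value was 0.12 within the 19 closely matching pairs and 0.45 over all pairs. Some closely matching pairs lay apart. Igkv3-10 and Igkv3-4 gave 1.90 and 0.645, and Igkv4-72 and Igkv4-54 gave 0.96 and 0.26, each pair matching at 55 bases. Of the 19 pairs, 17 lay within a family, so family and similarity of sequence cannot be told apart here. On the plus strand 24 of 32 probes were called and on the minus strand 41 of 60.

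Other genes of the antibody pathway were read in the same fit, from lists and descriptions. Igkc, the kappa constant segment, was read by 2 probes; one measured 6.75 and 6.63 in tumour-bearing mice with control antibody, against 5.50 and 5.65 in tumour-free mice. Neither group overlapped the other, the difference was 1.12 ± 0.15 (limma adjusted p = 0.00828), and the second probe gave 1.21 ± 0.16 (limma adjusted p = 0.00772). Heavy chain V probes rose in 62 of 86 cases with a median of 1.83, and lambda V probes, of the other light chain, in 2 of 3 cases, Iglv1 by 1.67 ± 0.22 (limma adjusted p = 0.00716). The joining segments Igkj1, Igkj2, Igkj4 and Igkj5 had no kept probe. Of 19 plasma cell genes 7 rose and 0 fell, with a median of 0.36 and a summed signal of 146 to 152 in tumour-bearing and 109 to 114.5 in tumour-free mice with control antibody. They included Jchain, which links antibody multimers (1.76 ± 0.29, limma adjusted p = 0.0162), Mzb1, a chaperone for antibody assembly (1.22 ± 0.15, limma adjusted p = 0.00585), and Derl3, a factor of protein degradation at the endoplasmic reticulum (1.60 ± 0.12, limma adjusted p = 0.000975). Xbp1, the plasma cell stress-response factor, gave 0.51 ± 0.09 (limma adjusted p = 0.0187). Prdm1, the factor that drives plasma cell differentiation, was not called (0.28 ± 0.13, limma adjusted p = 0.245), nor was Sdc1, the plasma cell surface marker CD138, which was well above background on 3 of the 8 arrays (limma adjusted p = 0.0611). One of the 7, Tnfrsf17, a survival receptor of plasma cells, measured -3.30 and -3.26 in tumour-bearing mice, against -5.72 and -5.37 in tumour-free mice. It was kept only through the tumour-bearing control arrays, the high ones, so its call is not support for a difference.

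The B cell identity genes went the other way. Of 20, 8 fell and 1 rose, with a median of -0.70, and their summed signal was 69.0 to 90.5 in tumour-bearing and 95.4 to 118 in tumour-free mice with control antibody. Ms4a1, which encodes CD20, measured 2.62 and 2.13 in tumour-bearing mice, against 2.94 and 3.28 in tumour-free mice (-0.74 ± 0.16, limma adjusted p = 0.0418). Cd79a, a signalling chain of the B cell receptor, fell by 0.84 ± 0.17 (limma adjusted p = 0.0309), while Cd79b, its partner chain, missed the threshold (-0.70 ± 0.17, limma adjusted p = 0.0503). The gene that rose, Cxcr5, a homing receptor of B cells that follicular helper T cells also carry, gave 1.04 ± 0.16 (limma adjusted p = 0.0118). Markers of other blood cells moved as well: 10 of 13 erythroid and 7 of 13 neutrophil genes rose, with medians of 1.97 and 1.98. Of these 7, Ngp was kept only through the tumour-bearing control arrays and Ctsg only through the tumour-bearing groups. The erythroid and neutrophil summed signals were 501 to 765 and 123 to 131 in tumour-bearing mice with control antibody, against 196 to 379 and 34.6 to 55.1 in tumour-free mice. T cell genes rose in 1 of 11 cases, Cd5, with a median of 0.16. The part of these cells in the kappa V differences was not tested.

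The second comparison set anti-IL-6R against control antibody in tumour-bearing mice; it shares the tumour-bearing control arrays with the first. Kappa V segments were lower with anti-IL-6R: 17 of 92 probes fell and 0 rose, where 2.76% of all kept probes fell and 1.51% rose. The median difference was -0.45 log2 units against -0.04 for all kept probes, and 82 of 92 probes lay below 0. Arrays of the groups did not overlap in 57 probes that were lower and 2 that were higher with anti-IL-6R, where the shares over all kept probes were 34.1% and 25.7%. Among the 74 probes well above background on all arrays 16 fell. No probe of the 101 was called by limma when all usable probes entered the fit (35 of 101 at an unadjusted p under 0.05), where 0.0124% of all usable probes were called higher and 0.0141% lower. The calls also rest on single arrays. Without replicate 3, 4 or 8 all were lost, but far fewer of all kept probes were called lower as well, so this loss is not particular to kappa V probes. The median of the 92 stayed between -0.52 and -0.38 whichever array was left out.

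The 17 probes that fell belonged to 3 families: 15 of the 24 probes of family 4, 1 of the 2 of family 10 and 1 of the 6 of family 12. The median of family 4 was -0.78, with all 24 probes below 0. Outside family 4, 2 of 68 probes fell (2.94%), a share near the background of 2.76%, with a median of -0.31. The fall was not particular to family 4: medians were -0.77 in family 10, -0.74 in family 12 and -0.71 in family 9. Those of the other families with 3 or more probes lay between -0.35 and -0.09. Standard errors were smaller in family 4, with a median of 0.15 against 0.27 in the other families, which favours calls there. No test of the difference between families was made. All 17 were on the minus strand and none of the 32 plus-strand probes was called. Of the 66 probes without a closely matching partner, 9 fell.

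Igkv4-80 measured 0.56 and 0.43 with anti-IL-6R, against 1.32 and 1.47 with control antibody. The groups did not overlap, and the difference was -0.90 ± 0.13 (limma adjusted p = 0.0267). Igkv4-57 measured 0.42 and 0.43 with anti-IL-6R, against 1.24 and 1.33 with control antibody (-0.86 ± 0.15, limma adjusted p = 0.0299), and Igkv4-79 fell by 0.85 ± 0.18 (limma adjusted p = 0.0457). Igkv4-62 and Igkv4-57-1, whose probes share 53 bases, were close to each other at -0.78 and -0.82. Outside the family, Igkv10-96 measured 0.11 and 0.04 with anti-IL-6R, against 0.90 and 0.97 with control antibody. Its replicates lay close together, and it fell by 0.86 ± 0.12 (limma adjusted p = 0.0267). Igkv12-47 measured -2.27 and -2.56 with anti-IL-6R, against -0.79 and -1.40 with control antibody, the largest called difference at -1.32 ± 0.29 (limma adjusted p = 0.047). Each of these calls was lost without replicate 3, 4 or 8, and some without others, with adjusted p of up to 0.262. Of the 2 probes of Igkv4-58, the leader-spanning one was called (-0.82 ± 0.18, limma adjusted p = 0.0489) and the other was not (-0.45 ± 0.115, limma adjusted p = 0.0618).

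In the other direction the smallest p-values were those of Igkv8-34 (0.69 ± 0.46, limma adjusted p = 0.369), Igkv5-39 (0.83 ± 0.56, limma adjusted p = 0.376) and Igkv1-131 (0.96 ± 0.67, limma adjusted p = 0.391). In each, replicate 7 was the high array: Igkv8-34 measured -0.20 and -1.94 with anti-IL-6R, against -1.75 and -1.78 with control antibody. Without replicate 7 its difference was -0.18.

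Around the kappa V segments, Igkc had differences of -0.41 ± 0.15 and -0.44 ± 0.16 in its 2 probes, neither called (limma adjusted p = 0.136 and 0.129). Heavy chain V probes fell in 10 of 86 cases and rose in 1, with a median of -0.59. Plasma cell genes fell in 2 of 19 cases, among them Derl3 (-0.92 ± 0.12, limma adjusted p = 0.0267), with a median of -0.23 and a summed signal of 120 to 128 with anti-IL-6R, against 146 to 152 with control antibody. B cell identity genes rose in 3 of 20 cases and fell in 1, with a median of 0.61 and sums of 99.7 to 106 with anti-IL-6R and 69.0 to 90.5 with control antibody. Erythroid genes fell in 8 of 13 cases and neutrophil genes in 7 of 13, with medians of -1.09 and -2.04, and their summed signals with anti-IL-6R were 497 to 609 and 36.5 to 54.8. Of these 7 neutrophil genes, Ngp was kept only through the tumour-bearing control arrays, the high ones, so its call is not support for a difference. T cell genes fell in 1 of 11 cases, with a median of -0.29. Their part in the kappa V differences was not tested.

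The third comparison set tumour-bearing against tumour-free mice under anti-IL-6R. Its group means came from 4 arrays that gave no mean to the first comparison. The spread of each probe was estimated from all 8 arrays, so its tests are not independent of the first. Here 7 of 92 probes rose and 0 fell, where 0.181% of all kept probes were called higher and 0.0281% lower. The median difference was 0.86 against -0.05 for all kept probes, 90 of 92 lay above 0, and 73 had an unadjusted p under 0.05. The median was 0.62 without replicate 5 and 1.11 without replicate 6. Arrays did not overlap in 78 probes, all higher in tumour-bearing mice, where 16.0% of all kept probes were higher without overlap and 31.9% lower. Of the 74 probes well above background on all arrays 7 rose. With all usable probes in the fit limma called 0 of the 101 described probes (72 at an unadjusted p under 0.05), where 0.0318% of all usable probes were called higher and 0.00884% lower. The count rests on single arrays. Without replicate 6, which leaves replicate 5 as the only tumour-free array with anti-IL-6R, more of the 92 probes were called higher, and so were more of all kept probes. Without any other array, fewer of both were.

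Family 17 led this comparison. Igkv17-127 measured -0.18 and 0.02 in tumour-bearing mice, against -2.35 and -2.16 in tumour-free mice. The groups were far apart beside their spread, with a difference of 2.18 ± 0.24 (limma adjusted p = 0.0177). Igkv17-121 measured 1.24 and 1.15 in tumour-bearing mice, against -1.14 and -0.81 in tumour-free mice (2.17 ± 0.29, limma adjusted p = 0.0367). Under control antibody the same 2 probes had differences of 1.88 ± 0.24 and 1.50 ± 0.29, both called (limma adjusted p = 0.00597 and 0.0287). Igkv12-41 (1.61 ± 0.22, limma adjusted p = 0.0378), Igkv12-44 (1.61 ± 0.20, limma adjusted p = 0.0328) and Igkv13-84 (1.57 ± 0.22, limma adjusted p = 0.044) were also called. The remaining calls were Igkv3-7 (1.23 ± 0.18, limma adjusted p = 0.0495) and Igkv6-32, named here after its values were seen (1.44 ± 0.18, limma adjusted p = 0.0317). The calls of the 2 family 17 probes were lost without replicate 7 or 8, and that of Igkv17-121 also without replicate 3, 4 or 5, with adjusted p of up to 0.17. Those of Igkv12-41 and Igkv12-44 were lost without replicate 1, 2, 3, 4, 7 or 8, and that of Igkv13-84 also without replicate 5 (adjusted p up to 0.195). The only differences below 0 were those of Igkv8-16 (-0.80 ± 0.59, limma adjusted p = 0.614), where replicate 5 was high, and Igkv1-115, which was well above background on no array of either group and has no measured difference here.

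All 7 probes called under anti-IL-6R were among the 65 called under control antibody, which makes 7 of 7 and 7 of 65. Each probe has the same standard error in both comparisons, so this overlap is not an independent replication. Under both antibodies 89 of 92 probes lay above 0, and in 69 the difference was the larger under control antibody. Across the 92 probes the 2 host differences had a Pearson's r of 0.28 (0.39 for the 74), a description across probes that share slide and sequence. Igkc had differences of 0.92 ± 0.15 and 0.90 ± 0.16 in this comparison, not called (limma adjusted p = 0.0806 and 0.103), and heavy chain V probes rose in 22 of 86 cases.

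In tumour-free mice anti-IL-6R and control antibody were not told apart at the level of single probes. No kappa V probe was called, where 0.025% of all kept probes were called higher and 0.00624% lower, and 17 of 92 had an unadjusted p under 0.05 in limma. The median difference was -0.21 log2 units against 0.02 for all kept probes, with 65 of 92 probes below 0. When probes well above background on no array of either group were left out, 84 remained. Their median was -0.23, with the 1 probe dim in a single group set at its bound. The direction rests on replicate 5: without it the median was 0.02, with 45 of 92 probes below 0, and without replicate 6 it was -0.43, with 79 below 0. It was -0.08 without replicate 2 and -0.10 with normexp background correction. Arrays did not overlap in 22 probes that were lower and 3 that were higher with anti-IL-6R, where the shares over all kept probes were 16.9% and 23.0%. The 3 higher included Igkv7-33, which was dim in both groups. The lowest p-values below 0 were all in family 4: Igkv4-63 (-0.54 ± 0.15, limma adjusted p = 0.495), Igkv4-80 (-0.46 ± 0.13, limma adjusted p = 0.515) and Igkv4-55 (-0.44 ± 0.13, limma adjusted p = 0.52). Igkv4-63 measured 0.07 and 0.52 with anti-IL-6R, against 0.82 and 0.85 with control antibody; replicate 5 was its lowest array. Without replicate 5 the differences of these 3 family 4 probes were -0.31, -0.27 and -0.23. Above 0 they were Igkv8-16 (1.79 ± 0.59, limma adjusted p = 0.561) and Igkv14-126 (0.43 ± 0.22, limma adjusted p = 0.643), beside Igkv7-33, which was well above background on no tumour-free array and has no measured difference here. Igkv8-16 was 0.74 without replicate 5. Without replicate 6, 2 probes were called, 1 in each direction, and without replicate 5 none was.

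The difference between the antibody effects in tumour-bearing and tumour-free mice, tested as the interaction, was called for no kappa V probe by limma, where 0.00624% of all kept probes were called higher and 0.0187% lower, and 14 of 92 had an unadjusted p under 0.05. Its median was -0.30 against -0.07 for all kept probes, but it rests on single arrays: it was -0.03 without replicate 6, with 51 of 92 probes below 0, -0.55 without replicate 5 and -0.19 without replicate 1. The smallest p-values were those of Igkv10-96 (-0.84 ± 0.17, limma adjusted p = 0.0865), Igkv12-47 (-1.82 ± 0.41, limma adjusted p = 0.095) and Igkv12-38 (-3.01 ± 0.72, limma adjusted p = 0.0987), the last of which was dim in both tumour-free groups. Igkv10-96 measured 0.11 and 0.04 in tumour-bearing and -0.63 and -0.42 in tumour-free mice with anti-IL-6R, and 0.90 and 0.97 in tumour-bearing and -0.63 and -0.37 in tumour-free mice with control antibody. Only the tumour-bearing arrays separated by antibody in this probe. A p-value above the threshold does not show that the antibody acted alike in the 2 hosts.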

How the data were processed

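Kappa V segments were read from 8 single-colour arrays of CD4+ T cell RNA, in 4 groups of 2. The deposited scanner files hold intensity values per spot, and the submitters' processing notes name version 10.10.1.1 of Agilent Feature Extraction. Their processed signal is background-subtracted, per the file headers. The deposited value table holds log2 values that equalled these signals after scaling (r = 1) and served as an alternative.

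Outlier spots (60 to 95 an array) were dropped, spots of a probe averaged, and log2 signals centred on the array's 75th percentile (500 to 527 signal units). On each array 53.1% to 59.8% of probes were well above background, and the lowest such signal was 24.2 to 36.3, which limits what is measurable. No spot was saturated. A probe was kept if its signal cleared the software's background test on each of the 2 arrays of some group. All 8 arrays were fitted as 4 group means in limma 3.58.1 (R 4.3.3), with an intensity trend in the variance, two-sided tests and Benjamini-Hochberg adjustment over 32039 probes. The fit was tested on simulated data. Standard errors are limma's moderated ones, which join 4 residual degrees of freedom with a prior of 4.29 degrees of freedom (median over probes).

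The probes, lists and tests were chosen with earlier results of these data known. Named probes were, per comparison, the 5 with the largest called difference in each direction (up to 3 as bounds; the 3 with the smallest p where fewer than 3 passed), 1 per V family of 3 or more probes, segments whose probes differed in call, the 3 smallest interaction p-values, fixed pathway genes (some not reported here) and the gene of smallest p in a list; other probes were named after their values were seen. A listed gene was read from its kept probe with the highest mean. Alternatives were normexp background correction, quantile normalization, the deposited values, other filters, no variance trend, array weights, 1 probe per gene and each array left out. Comparisons that share arrays are not independent, and all comparisons share the spread estimated from all arrays.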

Additional observations from a re-analysis of the deposited data

How the results depend on the processing

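Counts below are of the 92 kappa V probes that passed. For tumour-bearing against tumour-free mice under control antibody, 65 became 39 with no filter on dim probes, 38 without the variance trend, 34 to 68 with an array left out, and 42 among the 68 outside V family 4. For anti-IL-6R against control antibody in tumour-bearing mice, 17 became 0 with no filter, 0 without the trend, 0 to 25 with an array left out, 9 without closely matching partners and 2 outside family 4. For tumour-bearing against tumour-free mice under anti-IL-6R, 7 became 3 with quantile normalization, 0 with no filter, 0 without the trend and 0 to 40 with an array left out. The restrictions by partner and family were chosen after seeing the data. The antibody comparison in tumour-free mice gave 0 to 2 and the interaction 0 to 1 with an array left out; the higher counts were without replicate 6. Without the filter more probes are tested, and with an array left out there are fewer samples. Calls over all kept probes changed in these settings too. Without the trend, those called higher for the host under control antibody went from 1075 to 511. Those called lower for the antibody in tumour-bearing mice went from 885 to 28. Such changes are thus not particular to kappa V probes. Otherwise the cause was not tested. Uncalled differences that changed sign were Igkv5-39 for the host under control antibody (0.90 and 0.39 without replicates 1 and 4; range -1.05 to 0.90), Igkv8-34 for the antibody in tumour-bearing mice (-0.18 without replicate 7; range -0.18 to 1.56), and, for the host under anti-IL-6R, Igkv8-16 (0.25 without replicate 5; range -1.86 to 0.25) and Igkv1-115, dim in both groups (0.35 and 0.34 without replicates 6 and 7; range -1.18 to 0.35). Of 737 alternatives for 47 named values, 589 kept direction and call, 138 lost the call, 4 gained it and 6 changed sign. Of 29 called values, 9 kept the call with any array left out. No paired analysis was possible because the groups compared share no replicate numbers.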

Other observations

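Further B-lineage lists and lists of other cells were read in the same fit for tumour-bearing against tumour-free mice under control antibody. Of 10 germinal centre genes 3 rose and 0 fell (median 0.33), 1 of them kept only through the tumour-bearing control arrays. They included Bcl6 (0.54 ± 0.09, limma adjusted p = 0.0185) and S1pr2 (0.77 ± 0.14, limma adjusted p = 0.0226). Of 10 genes of B cell precursors and V(D)J recombination none passed limma's threshold (3 at an unadjusted p under 0.05, median -0.0034), Vpreb1, a surrogate light chain gene, gave 0.07 ± 0.21, and Rag1, Rag2 and Igll1 had no kept probe. Monocyte and macrophage genes passed in 0 of 11 cases (2 at an unadjusted p under 0.05, median -0.47) and dendritic cell genes in 0 of 7 (1 at an unadjusted p under 0.05, median -0.21). Of 7 natural killer genes 1 rose and 2 fell (median -0.48). Genes of smallest p in the lists of other cells were Camp, a neutrophil granule peptide (4.31 ± 0.23, limma adjusted p = 0.000256), Gata1, an erythroid factor (0.79 ± 0.09, limma adjusted p = 0.00371), and Klra8, a natural killer receptor (-1.17 ± 0.13, limma adjusted p = 0.00408).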
